A study of Homo sapiens with 2 samples.

Results

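The mRNAs of 35 aminoacyl-tRNA synthetases were examined for 5-methylcytosine (m5C) in 2 human cell lines. The 16 genes whose symbols end in 2 were counted as mitochondrial enzymes and the 19 others as cytosolic enzymes. These classes follow the symbol alone, not where each protein acts. The genes were chosen by symbol, and a synthetase-like gene outside this list, TARS3, is given among related genes. RNA bisulfite sequencing (RNA BS-Seq) had been carried out on poly(A)-selected RNA of MCF10A, a line of normal mammary epithelial cells, and of MDA-MB-468, a breast cancer line. The labels give no treatment of the cells, and each line is represented by 1 library, so no difference between the lines has a replicate check. Purified RNA was treated with bisulfite at 60 degrees for 8 hours, which turns unmodified cytosine into uracil and leaves m5C as cytosine. For each cytosine the number of unconverted reads over all reads is the methylation ratio, and the number of reads is the coverage. Cytosines on a same-strand exon of a synthetase gene were kept from 10 reads upward, which gave 8576 sites in 34 genes in MCF10A and 5986 sites in 30 genes in MDA-MB-468, of 1584002 and 1271253 kept sites in all.

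An aminoacyl-tRNA synthetase joins an amino acid to the tRNAs that carry it, the step that sets the genetic code in translation. In most symbols the first letter names the amino acid in the one-letter code, so VARS1 charges tRNA with valine and QARS1 with glutamine, while EPRS1 charges both glutamate and proline. Cytosolic enzymes serve ribosomes of the cytoplasm and several of them form the multi-synthetase complex with the scaffold proteins AIMP1, AIMP2 and EEF1E1. Mitochondrial enzymes are made from nuclear genes and are imported, and both kinds of mRNA are translated in the cytoplasm. In mRNA, m5C is placed by methyltransferases such as NSUN2, for which a cytosine in front of a G-rich stretch (CNGGG) has been described, and NSUN6, for which CTCCA has been described. Bisulfite acts poorly on paired cytosines, so an unconverted cytosine can be modified or paired.

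The sequences below carry most of the called sites and are shown because the ratios described next fall on single letters of them. Each is the RNA-sense strand of GRCh37 written with T, 5′ to 3′, and capitals mark the cytosines called m5C in at least 1 line. The VARS1, QARS1 and FARSA genes lie on the minus strand and RARS1 on the plus strand.
VARS1 exon 2, position 288, chr6:31762933-31762961: gccttccccagcctCcgagccctcatagc
VARS1 exon 2, position 320, chr6:31762901-31762929: tcgctatggggaggCtggggagggtcccg
VARS1 exon 2, positions 416 to 432, chr6:31762797-31762825: tgccggCCCtggagcaggggccCggtggg
VARS1 exon 3, chr6:31760867-31760894: gtgctgggggCCCtgggCagggccctga
VARS1 exon 29, chr6:31746946-31746974: ctggCCCtgggggCtcccgcCCCCCaggg
QARS1 exon 2, chr3:49141819-49141847: ttggcctcccgactCagggatacccggcg
RARS1 exon 14, chr5:167944966-167944993: acttatttCtCCaCaCtCtCtgtgatta
FARSA exon 2, chr19:13041479-13041507: ggagattgccCgggagggCagccatgagg

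MCF10A had 25 synthetase sites called m5C, and MDA-MB-468 had 31. A call is a one-sided Fisher's exact test of the site against the unconverted share of all kept sites (1.99% in MCF10A, against 1.81% in MDA-MB-468) at a Benjamini-Hochberg adjusted p below 0.05 over all kept sites. The 25 sites are 0.292% of the kept synthetase sites of MCF10A (95% Wilson interval 0.198 to 0.430%), against 0.960 percent of all kept sites and 0.848% of all mRNA sites of that library. The 31 sites are 0.518% in MDA-MB-468 (0.365 to 0.734%), against 0.840 percent of all kept sites and 0.730% of mRNA sites. Intervals here and below cover counting error only, and since 1 read covers several cytosines they are too narrow. By gene, 7 of 34 synthetases with a kept site (20.6%) had an m5C site in MCF10A, where 21.1 percent of protein-coding genes did. In MDA-MB-468 it was 6 of 30 (20%), where 16.9 percent of protein-coding genes did. The share of genes was thus close to that of other mRNAs. The share of sites lay below that of other mRNAs in MCF10A, while for MDA-MB-468 the upper end of its interval reached that share.

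VARS1, the valyl-tRNA synthetase, held 14 of the 25 sites in MCF10A (56.0%) and 19 of the 31 in MDA-MB-468 (61.3%). In MCF10A the other called genes were FARSA with 4 sites, AARS1 and TARS1 with 2 each, and KARS1, MARS1 and QARS1 with 1 each. In MDA-MB-468 they were RARS1 with 8 sites and IARS2, QARS1, VARS2 and WARS1 with 1 each. QARS1 and VARS1 were the 2 genes called in both lines, 11 genes were called in at least 1 line, and 24 in neither. Without VARS1, 0.141% of synthetase sites were called in MCF10A, against 0.232% in MDA-MB-468.

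**Figure D1:**
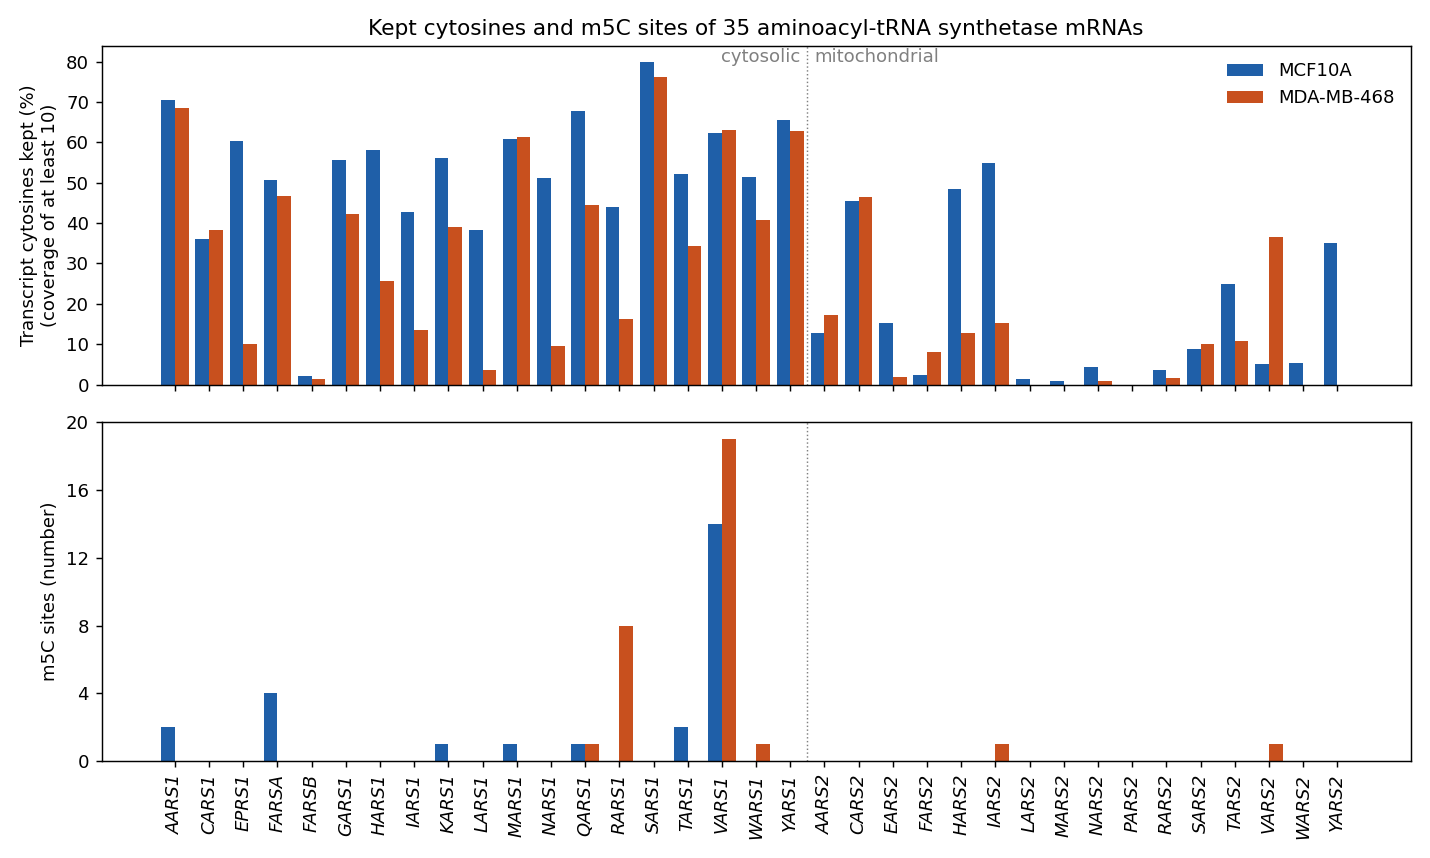
Upper panel, share of the cytosines of each gene's canonical transcript that were kept, in percent, and lower panel, number of m5C sites, for MCF10A (blue) and MDA-MB-468 (orange), 1 library each. VARS1 stands highest in the lower panel with 14 and 19 sites, and bars right of the dotted line belong to the 16 mitochondrial enzymes.

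The sites of VARS1 lay in its coding sequence, in exons 2, 3 and 29 of 30. Its canonical transcript is 4111 nt long, has a GC content of 61.7% and comes from chr6:31745295-31763529. In exon 3, the CCC at transcript positions 641 to 643 had 22 unconverted reads of 23 (95.7%) at each of its 3 cytosines in MCF10A. In MDA-MB-468 the same 3 had 13 of 14 (92.9%), 13 of 14 and 14 of 14 (100%). The next cytosine, at position 648, had 18 of 25 (72.0%) in MCF10A, against 12 of 15 (80%) in MDA-MB-468. Both libraries thus showed a high ratio on the same 4 letters, with adjusted p from 1.48e-33 to 9.70e-23 in MCF10A and from 4.29e-22 to 3.76e-16 in MDA-MB-468. The 4 other kept cytosines within 10 nt had together 5 unconverted of 145 counts (3.45%) and 2 of 98 (2.04%).

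In exon 29 most called sites fell in a CCC and in a CCCCC, on either side of a stretch with cytosines that converted. The CCCCC at positions 3756 to 3760 had ratios of 34.2, 57.1, 51.4, 58.3 and 55.6% in MCF10A, in 5′ to 3′ order. The order in MDA-MB-468 was 38.6, 44.8, 52.5, 47.5 and 48.4%, so the first cytosine of the run was the lowest in both libraries. The CCC at 3740 to 3742 had 8.62, 38.6 and 31.6% in MCF10A, where the first did not pass the test, and 9.89, 20 and 23.3% in MDA-MB-468. The cytosine at 3749 had 23.3% and 25%. Between the called CCC and CCCCC, the cytosines at 3751, 3752 and 3755 had 0 unconverted of 41, 40 and 37 in MCF10A, and the one at 3753 had 2 of 38. In MDA-MB-468 those 4 cytosines had 0 or 1 unconverted of 55 to 63. Coverage here was 35 to 58 in MCF10A, while MDA-MB-468 had 55 to 96, the deepest of the VARS1 stretches. Over this stretch, called cytosines pooled to 42.1% and 32.0% unconverted, and the other kept cytosines within 10 nt to 2.03% and 0.672%.

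In exon 2 the called sites had low coverage, and most lay beside cytosines of similar ratio on fewer than 10 reads. The cytosine at position 320 had 18 of 19 (94.7%, interval 75.4 to 99.1%) in MCF10A, against 12 of 14 (85.7%, 60.1 to 96.0%) in MDA-MB-468. The cytosine at position 288 had 8 of 10 (80%) in MCF10A, and in MDA-MB-468 its 4 of 7 lay below the coverage minimum. The 7 other deposited cytosines from 279 to 289, all below the minimum, had 60 to 75% in MCF10A, while MDA-MB-468 had 42.9 to 71.4%. Downstream, the 4 kept cytosines at 293 to 297 had 0 unconverted of 66 and 0 of 63 counts, so the high ratios ended within a few letters. At position 614, MDA-MB-468 had 7 of 10 (70%) and MCF10A 6 of 7, again below the minimum. The 6 cytosines from 615 to 624 had 5 or 6 reads in MCF10A, all of them unconverted, and 83.3 to 88.9% of 6 to 9 reads in MDA-MB-468. Just before them, the cytosine at 611 had 0 of 7 and 0 of 11. The CCC at 416 to 418 and the cytosine at 432 had 40 to 50% at a coverage of 10 in MDA-MB-468. In MCF10A the cytosine at 432 had 3 of 5 reads, and the CCC had no deposited counts. In MDA-MB-468 the 5 cytosines from 406 to 413 had 37.5 to 55.6% of 8 or 9 reads, those at 430 and 431 had 22.2% and 33.3% of 9, and the one at 424 had 0 of 10. The sites at 288, 432 and 614 were thus called in 1 line and had high ratios on fewer than 10 reads in the other.

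Most of the called VARS1 sites share a feature of sequence that was looked for after their values were seen. Perfect inverted repeats, that is 2 arms of at least 7 nt that are reverse complements of each other with 3 to 40 nt between them, were searched in the canonical transcripts, with Watson-Crick pairs only. In such arms lay 13 of the 14 VARS1 sites of MCF10A (92.9%) and 14 of the 19 of MDA-MB-468 (73.7%). Among all kept synthetase sites the share in arms was 5.19% and 5.48%. That share is over all the genes and not over the kept sites of VARS1 alone. The VARS1 sites lie in a few stretches whose cytosines share reads, so they are not separate observations. Outside VARS1 it was 0 of 11 called sites in MCF10A, against 2 of 12 (16.7%) in MDA-MB-468, both in RARS1. The arms in exon 29 are ccctggggg at 3740 to 3748 and cccccaggg at 3756 to 3764, and the loop between them holds both the called cytosine at 3749 (23.3% and 25%) and the converted ones at 3751 to 3755. The sites at 288 and 320 of exon 2 lie in facing arms of 12 nt, tccccagcctcc at 278 to 289 and ggaggctgggga at 315 to 326. In exon 3 the CCC lies in the arm gggccct at 638 to 644, and the CCC of the facing arm agggccc at 649 to 655 had 1 unconverted read at each cytosine in MCF10A, against 0 in MDA-MB-468. Most of the same letters also lie in the arm cctgggc at 642 to 648, which faces gcccagg at 613 to 619 across the border of exons 2 and 3. That facing arm was highly unconverted on few reads, with 6 of 7 at 614 and 6 of 6 at 615 and 616 in MCF10A, while MDA-MB-468 had 7 of 10, 8 of 9 and 8 of 9.

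A folding prediction gave a related count. With RNAfold at 70 degrees, 9 of the 25 called sites of MCF10A (36.0%) and 16 of the 31 of MDA-MB-468 (51.6%) were predicted to be paired, against 10.4% and 9.96% of all kept synthetase sites. All kept sites predicted paired had a pooled unconverted share of 2.69% in MCF10A, against 2.05% in MDA-MB-468, and those predicted unpaired 2.15% and 1.67%. Most kept cytosines in arms of inverted repeats had low ratios too, with 3.58% and 3.32% unconverted over 445 and 328 sites. Leaving out the sites predicted paired left 16 called sites in MCF10A, 8 of them in VARS1, while MDA-MB-468 was left with 15, again 8 of them in VARS1. Modification and pairing cannot be told apart at these cytosines from the counts.

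**Figure D2:**
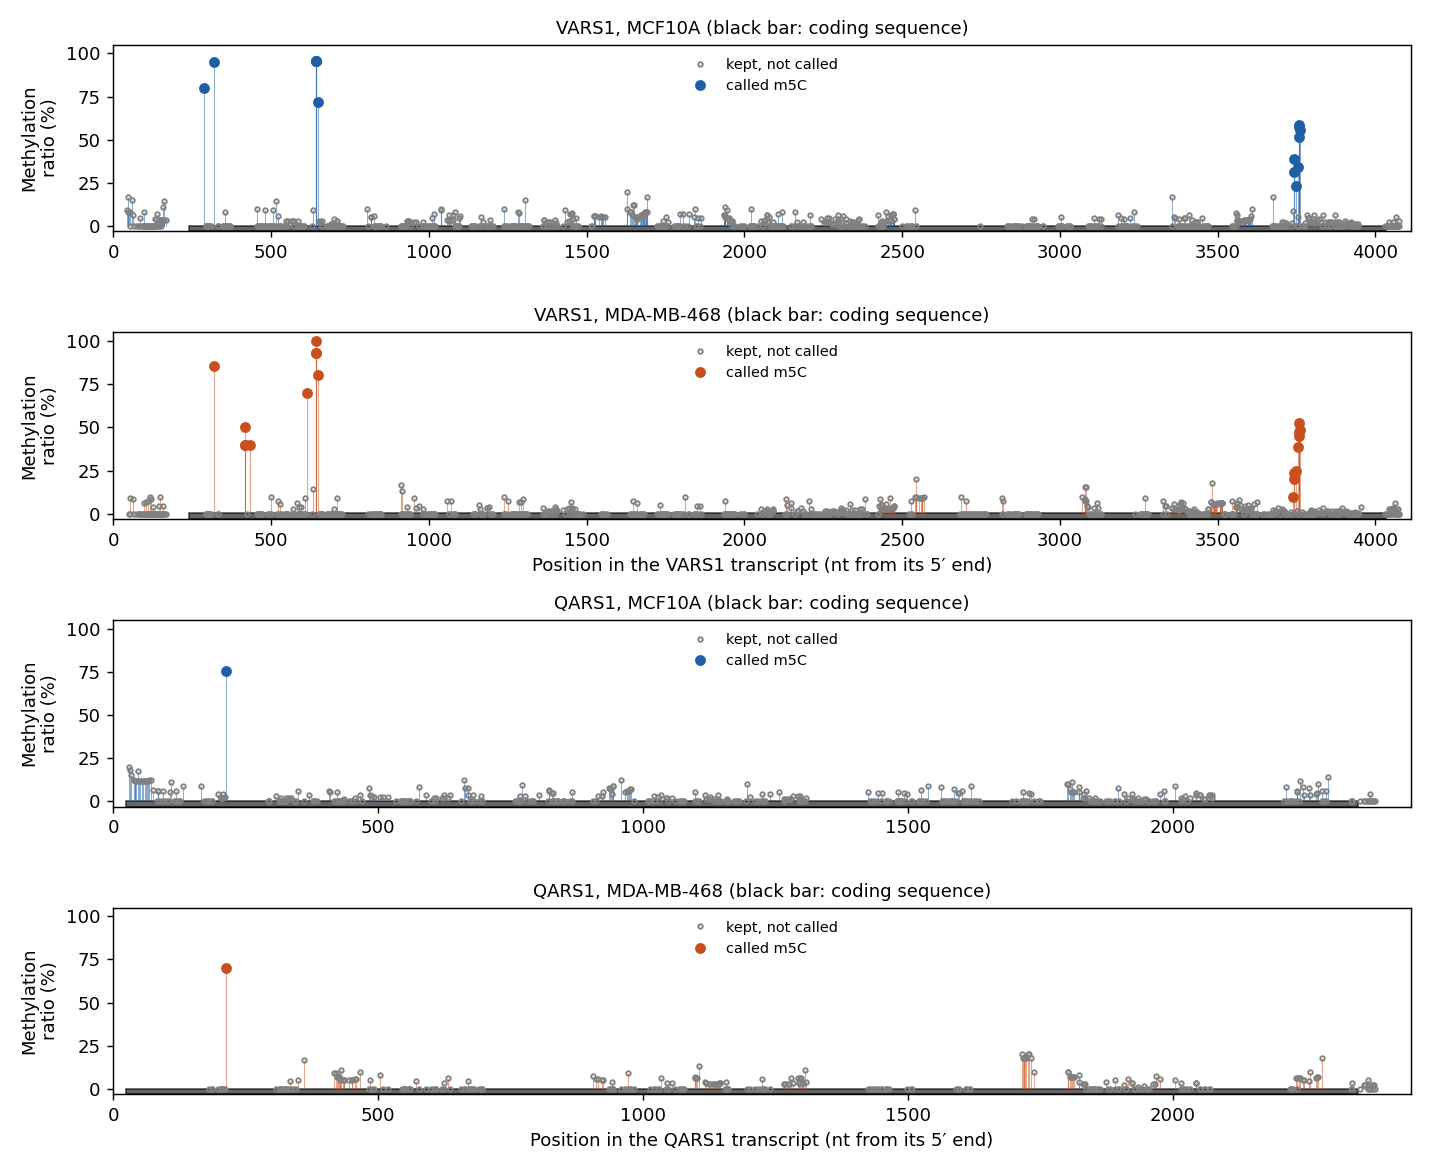
Methylation ratio in percent against the position in the canonical transcript, in nt from its 5′ end, for each kept cytosine of VARS1 and QARS1 in both lines; filled points are called m5C, open points are not, and the black bar is the coding sequence. The high points of VARS1 at 320, 641 to 648 and 3740 to 3760 sit at the same places in both lines, those at 416 to 432 and 614 were kept in MDA-MB-468 and the one at 288 in MCF10A, and QARS1 has 1 high point, at 213.

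QARS1, the glutaminyl-tRNA synthetase, had 1 high cytosine. In exon 2 of 24, at chr3:49141833-49141833, 31 of 41 reads were unconverted in MCF10A (75.6%, interval 60.7 to 86.2%, adjusted p = 4.08e-41, Fisher's exact test). In MDA-MB-468 it was 7 of 10 (70%, 39.7 to 89.2%, adjusted p = 2.49e-08, Fisher's exact test). The 6 kept neighbours within 10 nt had 7 unconverted of 272 counts (2.57%) in MCF10A, against 0 of 60 in MDA-MB-468. The 2 ratios did not differ beyond counting error (two-sided Fisher's exact p = 0.701, unadjusted). The site is position 213 of a transcript of 2449 nt, the last base of a codon at nucleotide 189 of the coding sequence, and lies in the 5′UTR of another annotated isoform. It was not predicted to be paired and lies in no inverted repeat of the kind searched. It is followed by AGGG and so reads as CNGGG. Ratios of at least 50% were found at 11 called sites of MCF10A and 9 of MDA-MB-468, all of them in VARS1 or QARS1.

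The motifs CNGGG and CTCCA were searched on the RNA strand at each kept cytosine, in each case with the first cytosine of the motif taken as the site. CNGGG held 248 kept synthetase sites in MCF10A, of which 6 were called, and 193 in MDA-MB-468, of which 7 were called. Over all nuclear kept sites 3.18% and 3.50% were in CNGGG, and of those 2.20% and 1.84% were called. Called synthetase sites in CNGGG were the QARS1 site, VARS1 positions 320, 643, 648, 3742 and 3760, and the VARS2 site of MDA-MB-468. In VARS1, 643, 3742 and 3760 are the last cytosines of called runs. CTCCA held 41 and 25 kept synthetase sites, of which 0 and 1 were called, the latter in RARS1, against 0.681% and 0.491% of all nuclear kept CTCCA sites.

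Outside VARS1 and QARS1 the called sites had lower ratios on few reads: 10 sites in 5 genes in MCF10A, with 4 to 9 unconverted reads and ratios of 9.38 to 36.4%, and 11 sites in 4 genes in MDA-MB-468, with 4 to 7 unconverted reads and ratios of 15.2 to 40%. At a coverage of 10 a call needed 4 unconverted reads in either library, and at a coverage of 50 it needed 6. FARSA, which encodes the alpha subunit of the phenylalanyl-tRNA synthetase, had 9 of 25 (36.0%) and 5 of 24 (20.8%) in exon 2 and 4 of 17 (23.5%) and 4 of 14 (28.6%) in exon 10 in MCF10A. In MDA-MB-468 the exon 2 sites had 2 of 31 (6.45%) and 3 of 30 (10%), and the exon 10 sites 0 of 12 and 0 of 9. The other kept cytosines within 10 nt of the FARSA sites had 10% unconverted in exon 2 and 19% in exon 10 in MCF10A, where those of the QARS1 site had 2.57%.

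KARS1, the lysyl-tRNA synthetase, had 4 of 16 (25%) at chr16:75674172-75674172 in exon 3 in MCF10A, and its kept neighbours had 17.8%. MARS1, the methionyl-tRNA synthetase, had 4 of 11 (36.4%) in its 5′UTR, 4 nt before the AUG, against 0 of 5 reads in MDA-MB-468. TARS1, the threonyl-tRNA synthetase, had 4 of 13 (30.8%) in exon 9 and 4 of 18 (22.2%) in exon 13, and too few reads in MDA-MB-468 at both sites. None of these sites had more than 4 unconverted reads. AARS1, the alanyl-tRNA synthetase, had 2 sites in its last exon, with 5 of 19 (26.3%) and 9 of 96 (9.38%) in MCF10A, and with 2 of 32 (6.25%) and 1 of 222 (0.450%) in MDA-MB-468.

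RARS1, the arginyl-tRNA synthetase, was called in MDA-MB-468 alone. In exon 14, 7 cytosines in a row within 12 nt each had 5 unconverted reads of 30 to 33 (15.2 to 16.7%), and in MCF10A each of them had 2 of 25 to 28 (7.14 to 8.00%). The same number of unconverted reads stood at every one of the 7 cytosines in each library, and 1 more kept cytosine within 10 nt had 18.2% in MDA-MB-468 without a call. A site in exon 12 had 4 of 11 (36.4%) in MDA-MB-468 and 1 of 28 (3.57%) in MCF10A, and its 4 other kept neighbours within 10 nt had 8 of 46 (17.4%) in MDA-MB-468. WARS1, the tryptophanyl-tRNA synthetase, had the only 3′UTR site, with 7 of 34 (20.6%) in MDA-MB-468 and 4 of 37 (10.8%) in MCF10A. IARS2 had 4 of 20 (20%) in exon 1 in MDA-MB-468, against 5 of 61 (8.20%) in MCF10A. VARS2, the mitochondrial valyl-tRNA synthetase, had 4 of 10 (40%) in exon 18 in MDA-MB-468, in an exon that a second annotated gene of the same strand shares, and no deposited count there in MCF10A.

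The share of called sites was higher in cytosolic than in mitochondrial mRNAs, in MDA-MB-468 with overlapping intervals, and the classes also differed in depth. Of 6806 kept sites in cytosolic mRNAs 25 were called in MCF10A (0.367%, interval 0.249 to 0.542%). Of 1770 in mitochondrial mRNAs 0 were called, which allows a share of up to 0.169% by 3 counts, or 0.217% by the Wilson interval. In MDA-MB-468 it was 29 of 4729 (0.613%, 0.427 to 0.879%) in cytosolic mRNAs and 2 of 1257 (0.159%, 0.0436 to 0.578%) in mitochondrial mRNAs. Median coverage was 23 against 16 for MCF10A, and 23 against 15 for MDA-MB-468. At a coverage of 20 to 49, 13 of 3048 cytosolic and 0 of 537 mitochondrial sites of MCF10A were called, while MDA-MB-468 had 8 of 1803 and 1 of 329. At a coverage of 10 to 19 MCF10A had 9 of 2695 and 0 of 1082, while MDA-MB-468 had 12 of 1987 and 1 of 887. Without VARS1 the cytosolic share was 0.183% (0.102 to 0.328%) and 0.255% (0.138 to 0.469%). These intervals overlap what the mitochondrial mRNAs allow in both lines. With a coverage minimum of 20 for all sites, the shares of cytosolic and mitochondrial mRNAs were 0.462% and 0.291% in MCF10A. In MDA-MB-468 they were 0.656% and 0.811%, so the order of the classes turned there. The mitochondrial calls behind that were in IARS2 alone, among 370 mitochondrial sites, and its site named above had 4 of 20 reads. In MCF10A they were in CARS2 alone, among 688 sites, so neither share describes the class. The part of depth in the difference was not tested.

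By region, called sites lay mostly in the coding sequence, which held 23 of 25 for MCF10A and 29 of 31 for MDA-MB-468. Of the coding sites of synthetases 0.309% were called in MCF10A, against 0.578% in MDA-MB-468, and of all coding sites of mRNAs 0.615% and 0.551%. In the 5′UTR, 2 of 459 synthetase sites were called in MCF10A (0.436%, interval 0.120 to 1.57%) and 1 of 339 in MDA-MB-468 (0.295%, 0.0521 to 1.65%). All mRNA sites in the 5′UTR had 2.24% and 1.95% called, above both intervals. In the 3′UTR it was 0 of 681 and 1 of 633 (0.158%), against 0.837% and 0.740% of all mRNA sites. The 1 site of MDA-MB-468 and 1 of the 2 of MCF10A in the 5′UTR are the QARS1 cytosine, which counts as coding if coding sequence takes precedence.

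The pooled unconverted share, that is all unconverted over all counts of a gene's kept sites, varied around the background. Among 30 genes with at least 20 kept sites in MCF10A the median was 1.95%, against 1.79% over 7266 protein-coding genes, and among 27 genes in MDA-MB-468 it was 1.73%, against 1.45% over 6431. In MCF10A the interval lay above the library background for 8 genes and below it for 7. The 8 were cytosolic and included TARS1 (4.56%), KARS1 (3.68%), FARSA (3.55%), RARS1 (3.51%) and VARS1 (2.87%). In MDA-MB-468 it lay above for 7 genes and below for 9. LARS1 was highest with 5.88% over 31 kept sites and had no called site, and RARS1 followed with 5.17%. RARS1, TARS1 and VARS1 lay above the background in both lines. No such count was made over all protein-coding genes, and the backgrounds (1.99% and 1.81%) lie above the medians of those genes. Since the intervals are also too narrow, these counts do not set the synthetases apart from other mRNAs. Without its called sites, VARS1 had 1.77% in MCF10A, against 1.19% in MDA-MB-468, and RARS1 still had 3.97% in MDA-MB-468. Pooled over classes, the share was 2.29% in cytosolic and 1.80% in mitochondrial mRNAs in MCF10A, and 1.74% and 1.52% in MDA-MB-468.

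**Figure D3:**
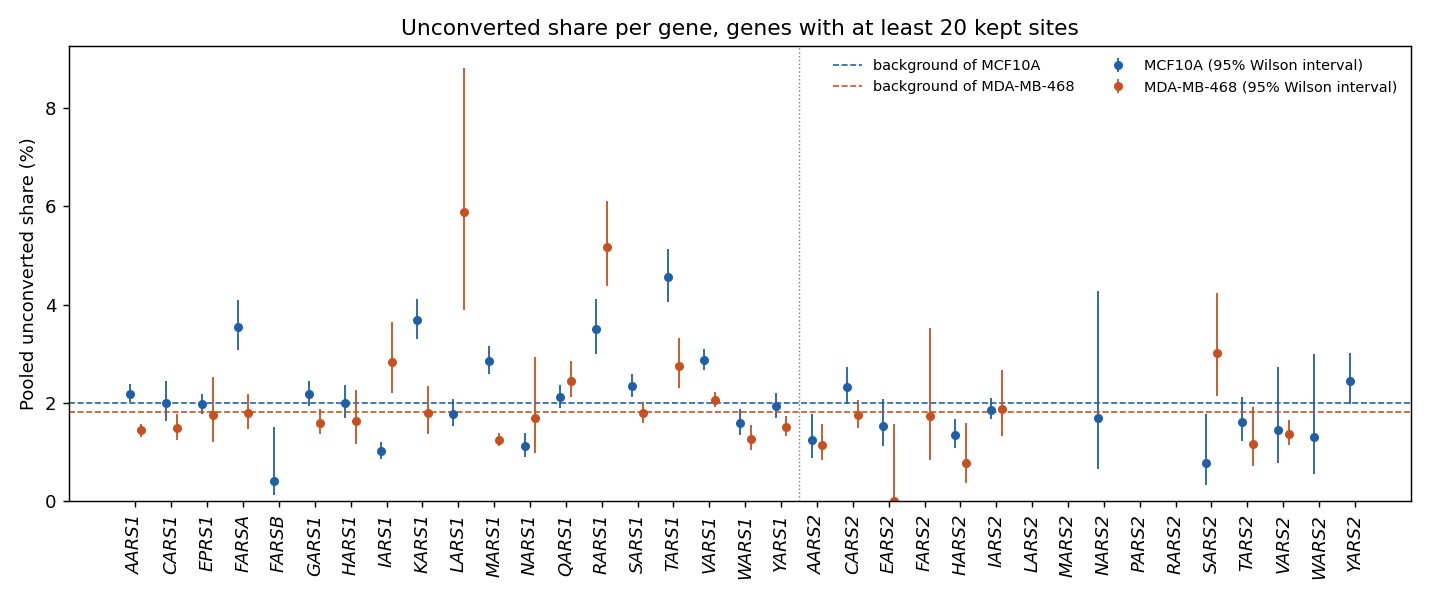
Pooled unconverted share in percent for each gene with at least 20 kept sites in MCF10A (blue) and MDA-MB-468 (orange), with 95% Wilson intervals that cover counting error only; dashed lines are the library backgrounds of 1.99% and 1.81%. TARS1, KARS1, FARSA and RARS1 stand above 3% in MCF10A, and LARS1 and RARS1 above 5% in MDA-MB-468.

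Between the lines, 4987 synthetase cytosines were kept in both libraries, and 0 of them differed by a two-sided Fisher's exact test with adjustment over all 812729 shared sites. At an unadjusted p below 0.05 there were 36 (0.722%), against 8826 of the 810403 nuclear shared sites (1.09%). Of all shared sites, 0.0202 percent were called higher and 0.0691 percent lower in MDA-MB-468. The test compares these 2 libraries and not the cell lines. Of the shared sites MCF10A had 19 called and MDA-MB-468 had 25, and 14 were called in both, 13 in VARS1 and 1 in QARS1. That is 73.7% of the calls of MCF10A and 56.0% of those of MDA-MB-468. Over all nuclear shared sites the overlap was 48.2% and 63.0%. The 30 shared sites called in at least 1 line had 16 higher and 14 lower ratios in MDA-MB-468, with a median absolute difference of 8.44 percentage points. The 14 such sites of VARS1 had 6 higher and 8 lower, with differences of -18.6 to 8.00 points, and 1 of them had an unadjusted p below 0.05 (Fisher's exact test, p = 0.0217).

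The site with the smallest p of the 4987 was in AARS1, at chr16:70286712-70286712, where MCF10A had 9 of 96 reads and MDA-MB-468 had 1 of 222 (two-sided exact p = 0.000118, adjusted p = 0.118). Among only the 12052 shared sites called in at least 1 line its adjusted p was 0.00182 (same test), and it was the only synthetase site to pass there. That set was selected with the counts that the test then compares, and this site entered it through its call in MCF10A. The smaller adjusted p is therefore no separate support for a difference. The exon 12 site of RARS1 showed the highest positive difference (32.8 points), and the FARSA site with 9 of 25 reads had the lowest (-29.5 points), and neither passed after adjustment.

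**Figure D4:**
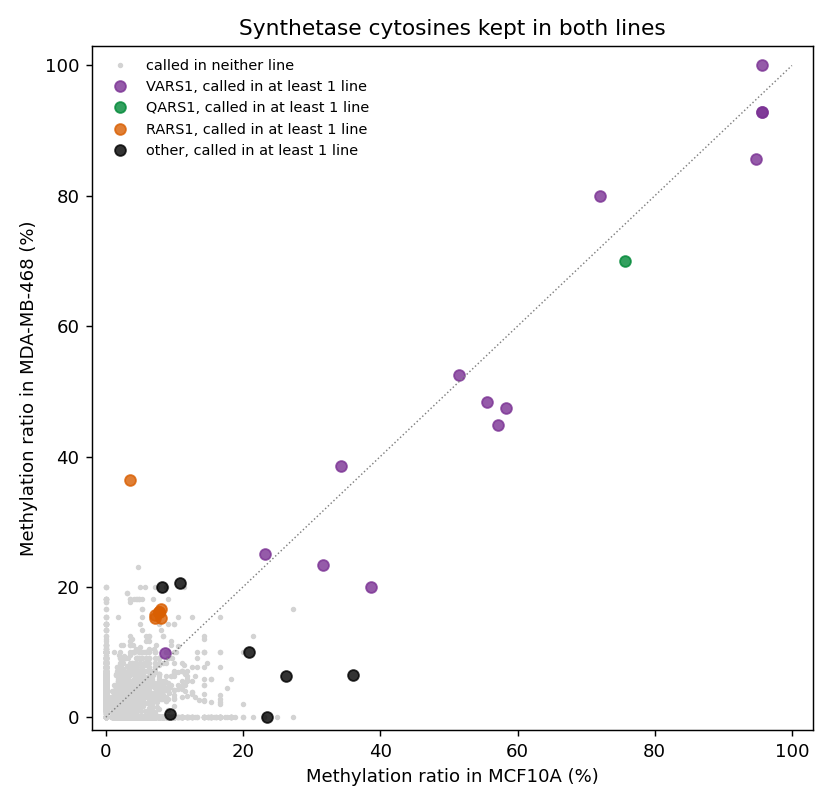
Methylation ratio in MDA-MB-468 against that in MCF10A, both in percent, for the 4987 synthetase cytosines kept in both lines; grey points were called in neither line, coloured and black points in at least 1, and the dotted line marks equal ratios. VARS1 and QARS1 lie along the line up to 100%, RARS1 lies above it, and most of the other called sites lie near an axis.

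The number of reads on the synthetase mRNAs differed between the libraries, and a gene without a kept site could not be called. Depth alone does not separate the other genes. AARS1 (597 and 583 kept sites) and FARSA (274 and 252) were called in MCF10A only. RARS1 (165 and 61) was called in MDA-MB-468 only. The part of depth in these calls was not tested. All 19 cytosolic genes had kept sites in both lines, with a median of 55.6% of transcript cytosines kept in MCF10A, against 39.1% in MDA-MB-468. For mitochondrial genes the medians were 7.0% and 4.92%. PARS2 had no kept site in either line, and LARS2, MARS2, WARS2 and YARS2 had none in MDA-MB-468, where YARS2 went from 175 kept sites in MCF10A to 0. In the other direction VARS2 had 54 kept sites in MCF10A, against 434 in MDA-MB-468. FARSB, the beta subunit of the phenylalanyl-tRNA synthetase, was the least covered cytosolic mRNA, with 29 and 18 kept sites.

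A level was taken as the coverage per transcript cytosine, scaled to the deposited counts of each library on nuclear exons (68863765 in MCF10A, against 49424455 in MDA-MB-468), and its log2 ratio of MDA-MB-468 over MCF10A was compared among 26 genes with at least 20 kept sites in each line. The median was 0.08, against 0.03 over 5200 protein-coding genes, and the quartiles of all genes were -0.77 and 0.81. The 7 subunits of the multi-synthetase complex listed here were set apart after their values were seen. Their counts beside those of the other cytosolic mRNAs are therefore a description and no support for a difference. No such count was made over all protein-coding genes. Of the 7 subunits, 6 were lower in MDA-MB-468: LARS1 (-3.09), EPRS1 (-2.31), IARS1 (-1.95), KARS1 (-0.72), QARS1 (-0.53) and RARS1 (-0.20). MARS1 was higher (1.25). Of the 11 other cytosolic mRNAs 9 were higher, among them CARS1 (1.18), VARS1 (1.0) and AARS1 (0.89), and NARS1 was lowest (-2.24). The mitochondrial mRNAs ranged from IARS2 (-2.23) to VARS2 (2.17). Deposited counts start at a coverage of 5, so cytosines with fewer reads add nothing to a level, and large ratios of thinly covered genes may be exaggerated. LARS1 had 483 deposited sites in MCF10A, against 101 in MDA-MB-468, and EPRS1 had 705 against 257. Scaled instead to all deposited counts, every log2 ratio changes by -0.74, including the median of all protein-coding genes, which is then -0.71. Of the 11 other cytosolic mRNAs 3 are then higher in MDA-MB-468, and the complex subunits remain at 1 higher and 6 lower. The order among genes does not depend on this choice, so higher and lower are relative to the nuclear exonic counts. These are log2 ratios from 1 library each, without a test. The levels are relative to the other counts of a library, so less RNA of a gene per cell and more counts on other genes cannot be told apart.

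These log2 ratios followed base composition. Over the 26 genes the log2 ratio had a Pearson r of 0.73 and a Spearman rho of 0.73 with the GC content of the transcript, and over the 5200 protein-coding genes r was 0.34 and rho 0.37. All points share the same 2 libraries, so this is a description. The complex subunits had a median GC content of 43.3% and the other cytosolic mRNAs 52.6%, and the part of base composition in their levels was not tested.

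**Figure D5:**
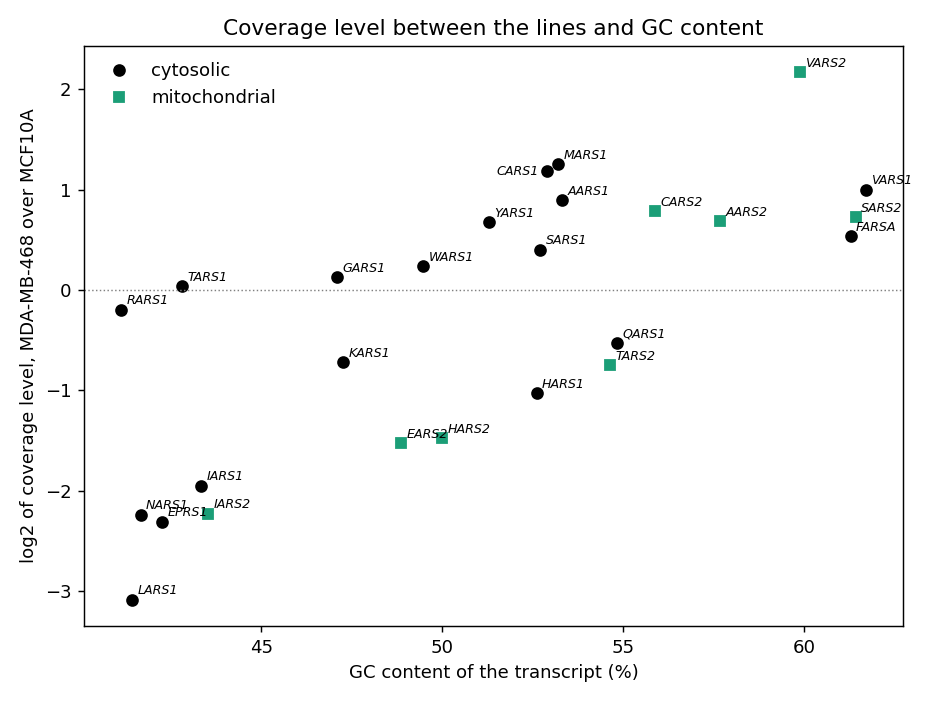
Log2 ratio of the coverage level, MDA-MB-468 over MCF10A, against the GC content of the canonical transcript in percent, for the 26 genes with at least 20 kept sites in each line; circles are cytosolic and squares mitochondrial enzymes. LARS1 lies lowest at -3.09 and VARS2 highest at 2.17, and the genes above 0 lie mostly at a higher GC content.

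A list of 11 other genes of tRNA charging held no m5C site in either line. It comprised the scaffolds AIMP1, AIMP2 and EEF1E1, the mitochondrial glutamyl-tRNA amidotransferase subunits GATB, GATC and QRSL1, the formyltransferase MTFMT, PSTK and SEPSECS of selenocysteine synthesis, AARSD1 and TARS3. In MCF10A 8 of them had 528 kept sites, which allows a share of up to 0.568%, and in MDA-MB-468 5 had 355 kept sites, which allows up to 0.845%. The highest ratios were 30% in AIMP1 in MCF10A and 23.1% in AIMP2 in MDA-MB-468, neither past the test.

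The libraries held 76098976 and 90960018 deposited counts, of which 60580227 and 42429746 lay on kept sites, with a median coverage of 18 in each. Of 4 epithelial markers, MCF10A had 2 with at least 10 kept sites, EPCAM and CDH1 having 0, and MDA-MB-468 had all 4. Of 6 basal markers, 4 and 3 were present, with KRT14 and TP63 at 0 kept sites in both lines. EGFR, SEC61G and KRT19, taken as markers of MDA-MB-468, had at least 10 kept sites in both. EGFR had 750 and 1843 kept sites, SEC61G 50 and 61, and KRT19 42 and 401. In MCF10A, KRT19 had 63.9% of its counts unconverted and 40 sites called, at a median coverage of 11. SEC61G had 57.6% unconverted and 46 sites called there. In MDA-MB-468 the unconverted shares were 1.45% in KRT19 and 3.49% in SEC61G. The cause of these high shares in MCF10A was not tested. Of 5 markers of leukocytes, fibroblasts and erythroid cells, 0 were present in MCF10A and COL1A1 alone in MDA-MB-468, with 267 kept sites.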

How the data were processed

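The authors trimmed reads with Trim Galore at a Phred score of 20 and, per the study's methods, mapped them to hg19 with MeRanTK, which also gave the cytosine calls. The submitters' processing notes name Trim Galore, Bismark and hg19. The deposited values are whole-number counts of unconverted and converted reads per cytosine, not normalized, from a coverage of 5 and with introns, so the coverage, exon and structure filters of the methods were applied here or tried as alternatives. Genes were taken from GENCODE release 44 on GRCh37 (basic transcripts), and all 13095 and 9966 deposited positions of the synthetases fell on a cytosine of their strand. Kept sites had a coverage of at least 10 on a same-strand exon or on chromosome M. Where isoforms differ, 5′UTR took precedence over coding sequence and that over 3′UTR.

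Groups came from the labels, 1 library per line. The call compared a site's counts with the summed counts of all kept sites (Fisher's exact test, one-sided), and the libraries were compared per site (Fisher's exact test, two-sided), each with Benjamini-Hochberg adjustment at 0.05 (Python 3.11.15, scipy 1.17.1, pandas 2.3.3, numpy 2.4.6). The tests were checked on simulated data. Wilson intervals are at 95%, and a count of 0 allows 3 counts of the total. RNAfold 2.7.2 folded the canonical GENCODE transcript of each gene, at 70 degrees, a pairing distance of 150 and an MEA parameter of 0.1, where the study used UCSC transcripts. Called neighbours were counted within 10 nt.

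The genes and lists were chosen with earlier results of these data known. All 35 genes are accounted for. Sites named were, in each line, the 10 called sites of highest ratio at a coverage of at least 20, the sites called in both lines at a ratio of at least 20%, differential sites, and the called site of highest ratio of each gene. Other called sites, the multi-synthetase subunits and the inverted repeats were chosen after their values were seen. Alternatives were a coverage minimum of 20 or 5, a nuclear background, a binomial test, a minimum ratio, the structure filter, the neighbour filter, the order of regions, per-gene medians and shared sites only, and, added after seeing the data, leaving out VARS1 and scaling levels to all deposited counts in place of those on nuclear exons.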

Additional observations from a re-analysis of the deposited data

How the results depend on the processing

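Of 155 values recomputed under alternatives, 112 stayed within 1.5 times the main count or within its interval and 43 moved, given here with MCF10A before MDA-MB-468. The 43 include 5 medians of levels, which were counted as moved without that rule. Some of the 112 could not move, so the tally is no measure of stability. Among them are mitochondrial values without VARS1, and differential counts of 0 where an alternative only removed sites after the test. The binomial test, the nuclear background, a minimum ratio of 20% and shared sites only moved none. Called sites came to 58 and 57 with all deposited sites (12 genes in MCF10A), to 16 and 15 without sites predicted paired, to 9 and 8 without sites that had a called neighbour, and to 11 and 12 without VARS1. With a coverage minimum of 20, 21 sites were called in each line, 16 and 18 of them among the calls above. The cytosolic share of called sites was 0.601% in MCF10A with all deposited sites, 0.329% in MDA-MB-468 without paired sites, 0.133% and 0.127% without neighbours, and 0.183% and 0.255% without VARS1. The mitochondrial share was 0.291% and 0.811% at a coverage minimum of 20. The only mitochondrial gene called there was CARS2 in MCF10A and IARS2 in MDA-MB-468. The called share of coding sites was 0.469% with all deposited sites and 0.486% at the minimum of 20 in MCF10A, 0.285% without paired sites in MDA-MB-468, 0.0943% and 0.120% without neighbours, and 0.134% and 0.234% without VARS1. The 5′UTR share of MDA-MB-468 was 0 at the minimum of 20 and with coding sequence first, by construction. The pooled cytosolic share was 2.44% and 1.94% with all deposited sites, 2.08% and 1.58% at the minimum of 20, 2.12% as the per-gene median and 2.22% without paired sites in MCF10A, and 2.22% and 1.67% without VARS1. The pooled mitochondrial share was 1.73% in MDA-MB-468 with all deposited sites, and 1.53% and 1.30% as per-gene medians. Scaling levels to all deposited counts changed each of 5 medians by -0.74, so that of other cytosolic mRNAs went from 0.40 to -0.34. Testing only called sites, a set selected with the same counts, gave 1 differential site lower in MDA-MB-468, in AARS1. Apart from the smaller sets of sites or tests that the alternatives define, the cause was not tested. No paired analysis was possible because each line has 1 library. Depth sets the fewest unconverted reads a call needs, 4 at a coverage of 10 and 6 at 50.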
